A study of Homo sapiens with 24 samples.

Results

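The genes that encode the proteins of the cytosolic ribosome were followed in 24 Affymetrix arrays of 2 B-lymphoblastoid cell lines. They were taken by symbol: RPL or RPS with a number and at most 1 further letter, or RPLP0, RPLP1, RPLP2 and RPSA. A gene entered where a probe set of its own carried that symbol and no other, and where a gene had several such probe sets the one with the highest mean signal was kept. This gave 61 of 18417 genes, of which 22 encode proteins of the small (40S) subunit and 39 encode proteins of the large (60S) subunit. The symbol rule fits 81 genes of the human gene table, and the other 20, among them RPLP0, RPSA, RPL13A and RPL39, were not analysed here. No filter on low signal was applied, so all 61 genes were tested.

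GM10861 and GM10855 are HapMap lymphoblastoid lines, that is, B cells of 1 donor each that Epstein-Barr virus has transformed into permanently growing cultures. Calcitriol is the active hormone made from vitamin D. Each line was sampled with calcitriol together with estrogen at 36 h, with calcitriol alone at 36 h, with estrogen alone at 36 h, and with no agent at 0 h, on 3 arrays per group and 8 groups in all. The agents were therefore compared with cells collected 36 h earlier, and the effect of an agent and of the time in culture cannot be told apart in any comparison with untreated cells. The comparisons among calcitriol, estrogen and both agents are all at 36 h. Doses are not stated, and nothing says whether the 3 arrays of each group hold RNA of separate cultures. The p-values therefore measure only the spread between arrays, which may be technical. With 1 line per donor, a difference between lines is a difference between these 2 lines.

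Every ribosome is built from 1 copy of nearly every ribosomal protein, assembled on ribosomal RNA in the nucleolus, and proliferating cells spend much of their RNA synthesis on these components. Most ribosomal protein mRNAs in vertebrates start with a C followed by a run of pyrimidines, the 5′ terminal oligopyrimidine (TOP) tract, through which the mTOR pathway and the RNA-binding protein LARP1 control their translation together. Control by TOP tracts acts mainly on translation, while an array reads the amount of mRNA. Some ribosomal proteins also act outside the ribosome: RPL5 and RPL11 bind MDM2 and stabilise p53 when ribosome assembly is disturbed, and RPS27L is itself a target gene of p53.

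The start sites of 8 of the genes are shown because the results below turn on them or on their close copies. Each line gives 20 bases before and 20 bases from the annotated start, 5′ to 3′ on the strand of the gene, from the RefSeq promoter table (GRCh38.p14), with the TOP tract in capitals.

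RPL10, chrX:154398357-154398396, plus strand: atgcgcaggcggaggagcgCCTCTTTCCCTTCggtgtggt
RPL10L, chr14:46651762-46651801, minus strand: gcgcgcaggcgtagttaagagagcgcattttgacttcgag
RPS27, chr1:153990742-153990781, plus strand: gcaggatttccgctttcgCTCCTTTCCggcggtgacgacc
RPS27L, chr15:63157458-63157497, minus strand: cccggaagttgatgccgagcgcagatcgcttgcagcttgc
RPS19, chr19:41860235-41860274, plus strand: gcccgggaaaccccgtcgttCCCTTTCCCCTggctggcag
RPL26, chr17:8383174-8383213, minus strand: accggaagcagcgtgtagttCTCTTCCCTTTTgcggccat
RPL12, chr9:127451387-127451426, minus strand: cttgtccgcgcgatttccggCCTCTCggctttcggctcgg
RPL14, chr3:40457319-40457358, plus strand: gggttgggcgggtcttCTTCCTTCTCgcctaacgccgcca

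A TOP tract was counted where a C lay within 5 bases of the annotated start, followed without a break by C or T to a length of at least 5 bases, read on the strand of the transcript only. Of the 61 genes, 50 had a promoter window, and 43 of these 50 (86.0%) held such a tract, against 6886 of 27305 genes with a window (25.2%). The ribosome of the mitochondrion offers a comparison, and 16 of 69 genes for its proteins (23.2%) held one. The 7 ribosomal protein genes without a match were RPL10L, RPL17, RPL27, RPS15, RPS27L, RPS29 and RPS4X. RPL10 and RPS27 thus carry a tract in these windows that their copies RPL10L and RPS27L do not. A match is a description of the letters, and its absence says only that they are not in this window.

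The arrays carried the markers of B cells. The per-array mean log2 signal of 6 measured B cell markers ranged over 7.95 to 8.65 and that of CD80, CD86 and FCER2, surface proteins of transformed B cells, over 8.89 to 9.20, while 4 T cell markers stood at 4.18 to 4.39. Markers of monocytes (4.19 to 4.61), NK cells (3.02 to 3.49) and erythroid cells (4.72 to 5.29) were below the array medians, and 1 of 2 fibroblast markers was above them (mean of both 5.65 to 5.95). Array medians lay between 5.38 and 5.50, arrays of 1 group correlated at 0.985 to 0.993 over all probe sets, and no 2 arrays were identical.

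Log2 signals here are those of the authors' RMA normalization, and the signal of a probe set depends on its own probes, so levels are compared between arrays and not between genes. The 61 genes had a median log2 signal of 10.7, with a lowest value of 5.39 and a highest of 12.48, against a median of 5.80 over all genes. The mean signal was at least 10 for 39 genes and under 7 for 5, namely RPL10L, RPL39L, RPL3L, RPL32 and RPL22. RPL10L, RPL39L and RPL3L are copies known mainly from testis or muscle. Ribosomal protein genes have many processed pseudogenes, and whether their transcripts bound to these probe sets was not tested.

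The median standard deviation of the 61 genes within groups was 0.114 on the log2 scale, with a range of 0.0422 to 0.184, against 0.130 over all genes. Their signal was higher (median 10.7, against 5.80 over all genes), and genes of matched signal were not compared. The 61 genes varied in common: the mean correlation between pairs of them, over 24 arrays after removal of the group means, was 0.322, and it was 0.173 for 73 mitochondrial ribosomal protein genes. One shared component held 43.5% of this variance within groups. Neither the correlation nor this share was computed over all genes or over genes of matched signal. Points of such a correlation share an array and its labelling, so it describes these arrays only, and fewer cells of a type and less RNA per cell cannot be told apart in bulk samples. The map of all 61 genes shows the shared movement as arrays that are light or dark over most rows.

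**Figure D1:**
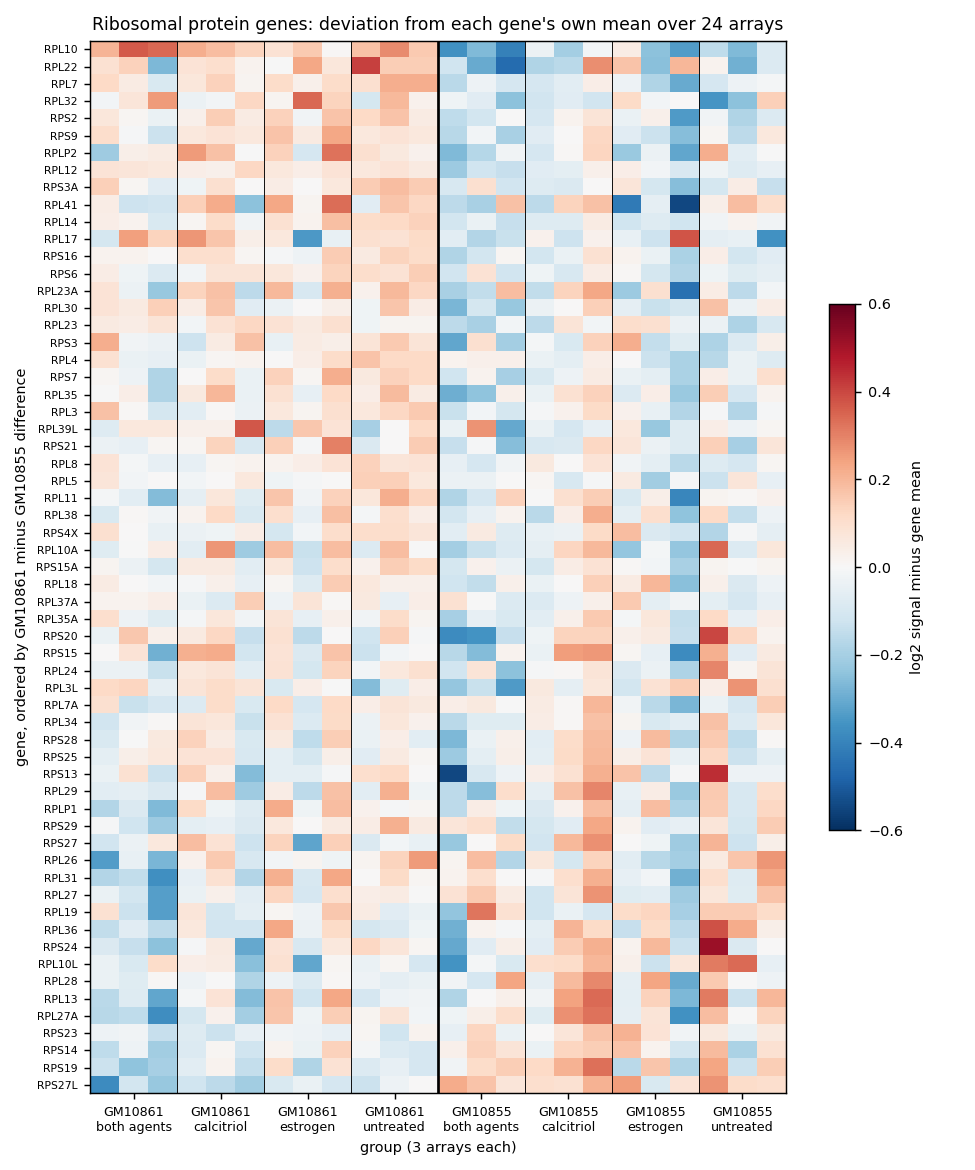
Deviation of each of the 61 genes (rows, ordered by the difference between lines) from its own mean over 24 arrays, in log2 units, for 3 arrays in each of 8 groups (columns). GM10855 estrogen array 3 is low and GM10855 calcitriol array 3 is high over most rows, and RPL10 at the top and RPS27L at the bottom show the widest mean differences between the lines.

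With both agents no ribosomal protein gene passed the test, although most of the 61 means were slightly lower than in untreated cells. Averaged over the lines, 0 of 61 genes were called at an adjusted p under 0.05 (limma, Benjamini-Hochberg over all probe sets tested), against 1.15% of 21214 probe sets. The change was below 0 for 55 of 61 genes, against 50% of all genes, and its median was -0.09 on the log2 scale, against a median near 0 over all genes. All 22 genes of the 40S subunit and 33 of the 39 genes of the 60S subunit were below 0, with medians of -0.07 and -0.10. At an unadjusted p under 0.05 the share was 13 of 61 genes, all lower (21.3%), against 10.9% of all probe sets.

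The median deviation of the 61 genes from their means was -0.0083, -0.0238 and -0.0794 on the GM10861 arrays with both agents, against 0.0233, 0.0854 and 0.0426 on the untreated ones. In GM10855 it was -0.1504, -0.0354 and -0.0242 with both agents, against 0.0616, -0.0759 and 0.0234 untreated. All 6 arrays with both agents stood below 0. The groups did not overlap in GM10861, where the highest array with both agents lay below the lowest untreated array, and overlapped in GM10855, where 1 untreated array lay below 2 of the arrays with both agents. No test of this median was made, since the genes share arrays and move together. The median change kept its sign in every alternative, from leaving out an array to rescaling the arrays, and lay between -0.107 and -0.0624.

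**Figure D2:**
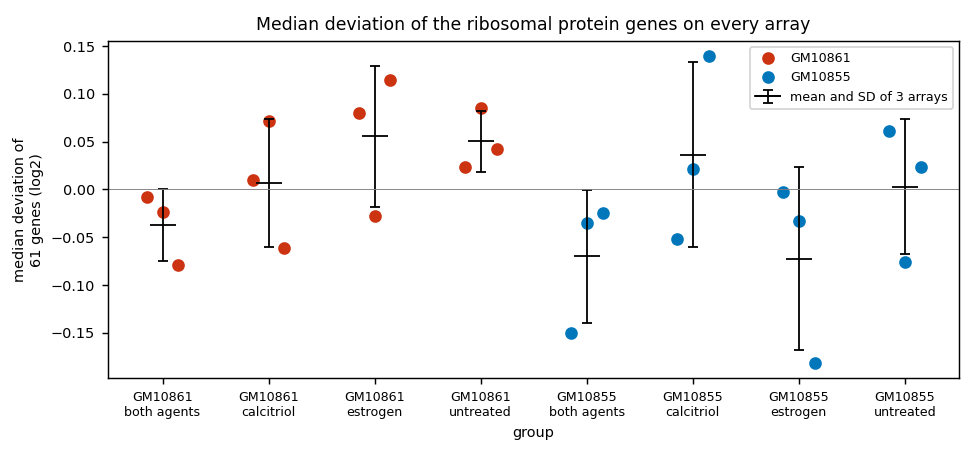
Median deviation of the 61 genes from their own means (log2) on each array, by line and agent, with the mean and SD of 3 arrays. All 6 arrays with both agents lie below 0, as do all 3 GM10855 arrays with estrogen alone. Single arrays of GM10855 reach -0.1817 with estrogen and 0.1396 with calcitriol.

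RPL26, a protein of the 60S subunit that also binds p53 mRNA, came closest to the threshold. Its log2 signal was 9.47, 9.76 and 9.53 in GM10861 with both agents, against 9.82, 9.94 and 10.06 untreated, and these groups did not overlap. In GM10855 it was 9.82, 9.99 and 9.63 with both agents, against 9.86, 9.97 and 10.07 untreated, and there they overlapped. The change was -0.25 ± 0.0705 (SE), an 0.838-fold level, with an adjusted p of 0.087 in limma, and 5 of 6 arrays with both agents lay below the untreated mean of their line. RPL26 passed the threshold when only probe sets with a mean signal of at least 5 were tested (adjusted p = 0.0496), with a trended and robust prior (0.022), with array weights (0.0354), and without GM10855 both agents replicate 2 (0.0328). It was not called with all probe sets, centred arrays, cyclic loess, all probe sets of a gene averaged, or only the groups compared. Nor was it called in any other fit that left out 1 array. With estrogen alone RPL26 was 9.79, 9.82 and 9.78 in GM10861 and 9.74, 9.64 and 9.60 in GM10855, a change of -0.23 ± 0.0705 with an adjusted p of 0.789. With calcitriol alone it was 9.83, 9.96 and 9.71 in GM10861 and 9.87, 9.70 and 9.94 in GM10855, a change of -0.12. These comparisons share the untreated arrays.

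The next smallest p-values with both agents belonged to proteins of the 40S subunit. RPS20, in the head of the subunit, had a log2 change of -0.21 (adjusted p = 0.222), and RPS7, which also binds MDM2, of -0.15 (adjusted p = 0.266). RPS7 read 8.91, 8.87 and 8.72 in GM10861 with both agents, against 8.96, 9.04 and 9.02 untreated, and 8.78, 8.92 and 8.70 in GM10855, against 8.94, 8.86 and 9.0 untreated. Its groups were apart in GM10861 and overlapped in GM10855. RPS7 was also picked by its p on these arrays, so this is no further evidence. On the higher side the smallest p-values belonged to RPL37A, RPL32 and RPL23, with changes of 0.04, 0.05 and 0.02. The 95% intervals had a median half-width of 0.14, and their farthest bound lay 0.431 from 0, so no gene's interval reached a larger change than that.

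Neither agent alone moved a ribosomal protein gene past the threshold. With calcitriol 0 of 61 genes were called, against 0.679% of all probe sets, and no gene had an unadjusted p under 0.05, against 6.55% of all probe sets. The changes were centred: 33 of 61 genes were below 0, against 50.7% of all genes, the median was 0.00 and the farthest interval bound was 0.307. RPS15, a protein of the 40S subunit, had the smallest p among the higher ones with a change of 0.13, followed by RPL23 (0.07) and RPL17 (0.09). The lower ones with the smallest p were RPL26 (-0.12), RPL19 (-0.12) and RPS29 (-0.09), and no adjusted p was under 0.878.

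With estrogen 0 of 61 genes and 0% of all probe sets were called by limma, with an unadjusted p under 0.05 for 2 genes (3.28%), against 5.17% of all probe sets. The change was below 0 for 48 genes, against 43.6% of all genes, with a median of -0.04, against 0.01 over all genes. This median of the 61 genes was -0.0229 without GM10855 estrogen replicate 3 and -0.0235 under cyclic loess. The estrogen arrays did not move together: those of GM10861 had a median deviation of 0.0797, -0.0274 and 0.1142, and those of GM10855 had -0.0026, -0.0334 and -0.1817. The estrogen change had a median of -0.01 in GM10861 and of -0.09 in GM10855, and that in GM10855 was -0.0411 without GM10855 estrogen replicate 3. In GM10861 the sign of this median was not stable, at -0.0465 without estrogen replicate 3 and 0.0354 without estrogen replicate 2. RPL23 (0.12, adjusted p = 0.927), RPL32 (0.16) and RPL37A (0.05) had the smallest p on the higher side, and RPL7 and RPL30 followed RPL26 on the lower side with -0.11 each.

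Set against cells that also spent 36 h in culture, both agents again gave no call. Against calcitriol alone, 0 of 61 genes and 0% of all probe sets were called by limma, and 5 genes had an unadjusted p under 0.05 (8.2%), against 8.35% of all probe sets. The difference was below 0 for 55 genes, against 48.6% of all genes, with a median of -0.08, against 0.00 over all genes. RPS15 (-0.24, adjusted p = 0.518), RPL35 (-0.18) and RPS20 (-0.17) had the smallest p. Against estrogen alone, 0 of 61 genes were called, against 0.754% of all probe sets, and 2 had an unadjusted p under 0.05 (3.28%), against 7.94%. The difference was below 0 for 49 genes, against 55% of all genes. Its median was -0.05 (-0.0247 without GM10861 estrogen replicate 3), against -0.01 over all genes. The lines differed here. In GM10861 the median was -0.08, with 47 of 61 genes below 0, against 55.1% of all genes. In GM10855 it was 0.01 (-0.0632 without GM10855 estrogen replicate 3), with 30 of 61 genes below 0, against 51.8%. Averaged over lines, RPLP1, RPL22 and RPS21 had the smallest p with -0.16, -0.22 and -0.15. Calcitriol against estrogen gave 0 calls, against 0.57% of all probe sets, and 0 genes at an unadjusted p under 0.05, against 7.43% (limma). The median was 0.04, but 0.00685 without GM10855 estrogen replicate 3, 0.0179 without GM10855 calcitriol replicate 3 and 0.00859 under cyclic loess, with RPS15 (0.18), RPL30 (0.09) and RPL26 (0.11) on the higher side. These comparisons share arrays with each other and with those above.

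The interaction of the agents, the change with both beyond the sum of the changes with each, gave 0 calls among the 61 genes and 0% over all probe sets in limma. Its median was -0.04, with a range of -0.0708 (without GM10855 estrogen replicate 3) to -0.0187 (without GM10855 estrogen replicate 2) when an array was left out, and 1 gene had an unadjusted p under 0.05 (1.64%), against 4.41% of all probe sets. RPL23 (-0.17), RPS15 (-0.19) and RPLP1 (-0.15) had the smallest p, with an adjusted p of 0.992. For the mean of the 3 agents against untreated cells 0 genes were called, against 0.457% of all probe sets, 2 had an unadjusted p under 0.05 (3.28%), against 7.73%, and RPL26 stood first with -0.20 (adjusted p = 0.182).

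**Figure D3:**
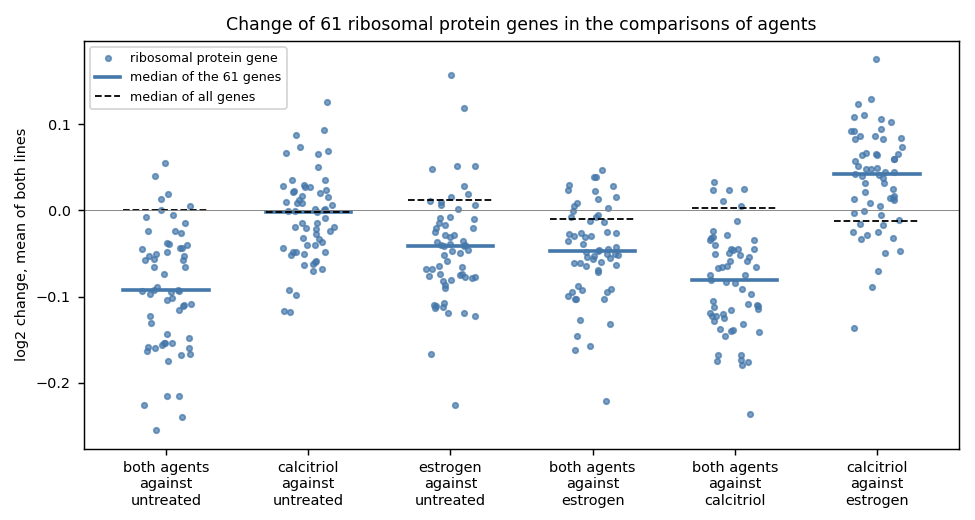
Log2 change of each of the 61 genes in 6 comparisons of agents, averaged over both lines (points), with the median of the 61 genes (solid bar) and of all genes (dashed bar). No point is called, and with both agents against untreated cells 55 of 61 points lie below 0 with a median of -0.09.

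Within single lines 2 genes were called, both lower with both agents in GM10855. This is 2 of 61 genes in the lower direction, against 0.363% of all probe sets in that direction and 2.33% in either. RPS20 read 10.50, 10.52 and 10.74 with both agents in GM10855, against 11.28, 11.00 and 10.90 untreated, so the groups did not overlap. Its change was -0.48 ± 0.105 (SE, adjusted p = 0.0178, limma). RPL3L, a copy of RPL3 known from skeletal and heart muscle, read 5.26, 5.36 and 5.15 with both agents, against 5.53, 5.76 and 5.59 untreated, again without overlap, at a low signal. Its change was -0.37 ± 0.0905 (adjusted p = 0.0309). RPS20 and RPL3L were picked by the test on these same arrays, so the lack of overlap is no further evidence.

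Both calls depended on single arrays. That of RPS20 was lost without GM10855 untreated replicate 1 or without GM10855 both agents replicate 1 (adjusted p up to 0.118), and with array weights or with only the 2 groups in the fit (up to 0.179). That of RPL3L was lost without GM10855 untreated replicate 2, without GM10855 both agents replicate 1 or replicate 3 (up to 0.132), and when all probe sets were tested, with array weights, or with only the 2 groups in the fit (up to 0.277).

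In GM10861 the log2 change with both agents was 0.05 for RPS20 (adjusted p = 0.982) and 0.16 for RPL3L (adjusted p = 0.794). The response in GM10861 minus that in GM10855 was 0.53 ± 0.128 for RPL3L (adjusted p = 0.134) and 0.52 ± 0.149 for RPS20 (adjusted p = 0.201), so a difference in response between lines was not called for either. Over all 61 genes, 0 differed in their response to both agents, against 0.0141% of all probe sets, 0 in their response to calcitriol, against 0.00943%, and 0 in their response to estrogen, against 0%. At an unadjusted p under 0.05 in limma these counts were 6 (9.84%), against 10.9% of all probe sets, 4 (6.56%), against 6.63%, and 3 (4.92%), against 5.93%. RPL41 and RPL36 had the smallest p of the estrogen responses on the higher side with 0.57 and 0.45, and RPL17 on the lower side with -0.43. The 95% intervals of these differences had a median half-width of 0.281. In the other within-line comparisons 0 of 61 genes were called, and 0 to 9 had an unadjusted p under 0.05, against 2.99% to 12.8% of all probe sets. The count of 9 (14.8%) occurred for both agents against estrogen in GM10861, against 5.17% of all probe sets, and for both agents against calcitriol in GM10855, against 12.8%. In GM10861 the shares of all probe sets called were 0.104% with calcitriol, 0% with estrogen and 0.184% with both agents against untreated cells, 0.127% for both agents against estrogen and 0% for both agents against calcitriol. In GM10855 they were 0.509% with calcitriol and 0% with estrogen against untreated cells, 0.632% for both agents against estrogen and 0.0519% for both agents against calcitriol.

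**Figure D4:**
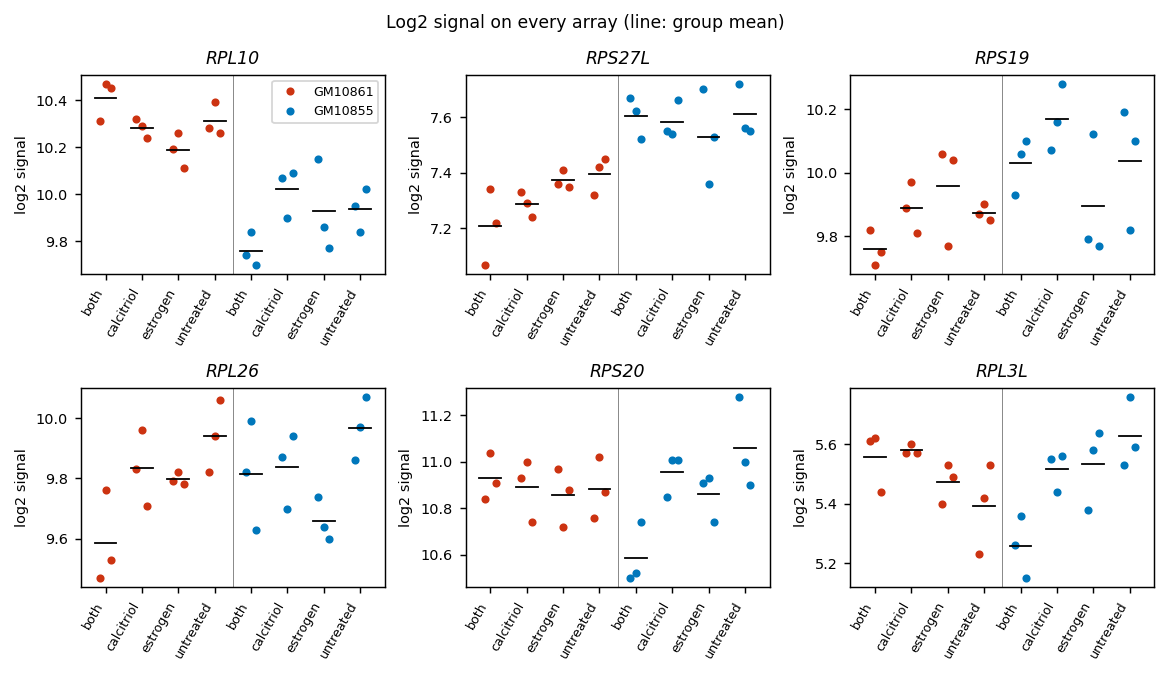
Log2 signal on every array (points; horizontal bars are group means of 3 arrays) for RPL10, RPS27L, RPS19, RPL26, RPS20 and RPL3L, by line and agent. The group means of RPL10 are higher and those of RPS27L lower in GM10861 under every agent, while the low values of RPS20 with both agents occur in GM10855.

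Between the lines, genes of both subunits differed, with RPL10 higher and RPS27L lower in GM10861 by the widest margins. Averaged over the 4 agent groups, 15 of 61 genes were called higher in GM10861 and 3 lower, which is 29.5%, against 41.8% of all probe sets called in either direction, 23.4% higher and 18.4% lower. The split between higher and lower depends on the scaling of the arrays: it was 15 higher and 3 lower with the deposited values, 19 and 2 with each array centred on its median, and 2 and 12 with cyclic loess. Over all probe sets the same settings gave 4970 higher and 3895 lower, 5467 and 2969, and 4416 and 3850. The median difference of the 61 genes was 0.04 with the deposited values, 0.07 with centred arrays and -0.04 with cyclic loess, so no direction is given for the family. Without GM10855 calcitriol replicate 1 it was 0.0286 with the deposited values. The differences were small, with a median size of 0.08 on the log2 scale, against 0.11 over all genes.

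RPL10, a protein of the 60S subunit near the binding site of transfer RNA and encoded on the X chromosome, differed most. Its log2 signal had a lowest, median and highest value of 10.11, 10.29 and 10.47 over 12 GM10861 arrays, against 9.70, 9.88 and 10.15 over 12 GM10855 arrays. Of the 12 GM10861 arrays 11 lay above the highest GM10855 array, and the ranges overlapped by 1 array. The difference was 0.39 ± 0.0447 (SE), a 1.31-fold level, with an adjusted p of 1.37e-07 in limma. By agent the mean was 10.41 ± 0.088 in GM10861, against 9.76 ± 0.0719 in GM10855 with both agents (SD, n = 3 each), and 10.31 ± 0.0708, against 9.94 ± 0.0898 untreated. The call held in every alternative, with a difference between 0.292 and 0.413.

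The second gene higher in GM10861 in every alternative was RPL7, another protein of the 60S subunit, at 0.18 (adjusted p = 0.000694), which under cyclic loess was 0.09 (adjusted p = 0.0398). All 3 of its probe sets gave 0.18. The other 13 higher genes were each lost under cyclic loess. Among them RPL12, a protein of the ribosomal stalk base, read 11.71, 11.74 and 11.80 (lowest, median, highest) in GM10861, against 11.46, 11.61 and 11.72 in GM10855. Its difference was 0.13 ± 0.0312 (adjusted p = 0.00128), with 0.13, 0.13, 0.14 and 0.11 on its 4 probe sets, and 0.04 (adjusted p = 0.257) under cyclic loess.

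The further genes called higher with the deposited values covered both subunits and the stalk. In the 60S subunit they were RPL22 at 0.19 (adjusted p = 0.028), RPL32 at 0.16 (0.0225), RPL14 at 0.12 (0.00551), RPLP2 of the stalk at 0.14 (0.0461), and RPL4, RPL23 and RPL30 at 0.10 each. In the 40S subunit they were RPS2 at 0.15 (0.00856), RPS9 at 0.14 (0.00705), RPS3A at 0.12 (0.0201), and RPS6, the protein phosphorylated by S6 kinase, and RPS16 at 0.11 each. RPLP2 was lost in 17 of 24 fits that left out 1 array, RPL30 in 14 and RPL22 in 9. With both agents the mean of RPL4 was 12.34 in GM10861, against 12.36 in GM10855. Untreated, the mean of RPL30 was 10.71 in both lines. RPS2 and RPL14 were also lost when all probe sets of a gene were averaged, where the single probe sets read 0.15, 0.07 and 0.07 for RPS2 and 0.12 and 0.03 for RPL14.

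With the deposited values the 3 genes called lower in GM10861 encode 40S proteins. RPS27L, the p53-responsive copy of RPS27, read 7.07, 7.34 and 7.45 (lowest, median, highest) in GM10861, against 7.36, 7.56 and 7.72 in GM10855, so that the ranges overlapped at their edges. Its difference was -0.27 ± 0.0429, an 0.832-fold level (adjusted p = 1.82e-05), and -0.333 under cyclic loess, with the call held in every alternative. RPS27 itself differed by -0.02 and was not called. RPS19, the protein most often mutated in Diamond-Blackfan anaemia, read 9.71, 9.86 and 10.06 in GM10861, against 9.77, 10.08 and 10.28 in GM10855. Its difference was -0.16 ± 0.052 (adjusted p = 0.0141), it held in every alternative with an adjusted p of up to 0.0494, and the ranges overlapped over most of their length. This average did not hold under every agent. With estrogen the mean of RPS19 was 9.96 ± 0.165 in GM10861, against 9.89 ± 0.198 in GM10855 (SD, n = 3 each). RPS23, at the decoding centre, differed by -0.11 (adjusted p = 0.0275), and was lost with arrays centred on their medians and in 6 of 24 fits that left out 1 array.

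Under cyclic loess 5 of the 18 calls held in the same direction (RPL10, RPL7, RPS27L, RPS19 and RPS23), none turned round, and 9 further genes were called lower. Those 9, named after their values were seen, were RPS14, RPL27A, RPL13, RPL28, RPS24, RPL19, RPL27, RPL31 and RPL26. RPS14 among them differed by -0.20 under cyclic loess and by -0.11 with the deposited values (adjusted p = 0.0659). In all, 20 of 61 genes changed the sign of their difference between these settings. The cause was not tested.

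**Figure D5:**
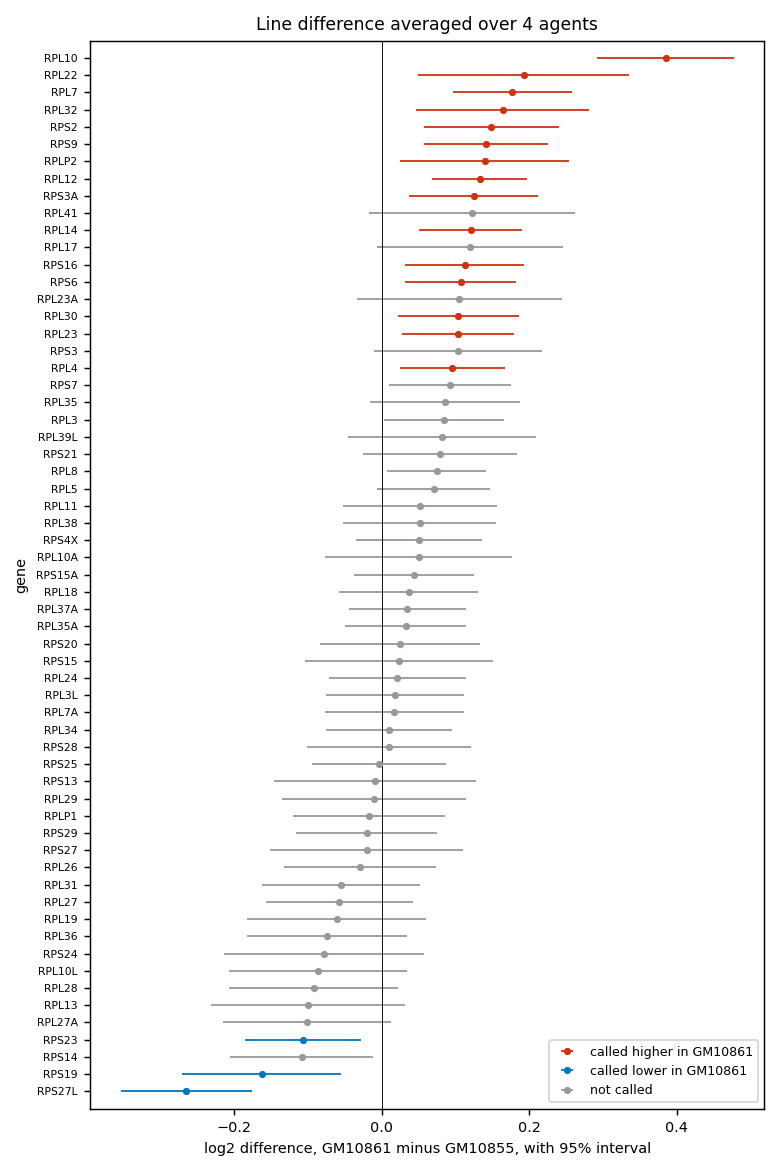
Log2 difference, GM10861 minus GM10855, averaged over 4 agents, with its 95% interval, for each of the 61 genes on the deposited values. RPL10 stands apart at 0.39 and RPS27L at -0.27, while the other genes lie within 0.2 of 0.

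Other genes of known interest were not called between the lines. RPL5 and RPL11, which bind MDM2, differed by 0.07 and 0.05, RPL3 by 0.08 (adjusted p = 0.0874), and RPS4X, encoded on the X chromosome, by 0.05. RPLP1, the partner of RPLP2 in the stalk, differed by -0.02. The copies RPL10L, RPL39L and RPL3L differed by -0.09, 0.08 and 0.02. RPL3 was called with arrays centred on their medians (adjusted p = 0.0376) and with a trended and robust prior (0.0315), and RPL5 with centred arrays (0.0472) and with all probe sets of a gene averaged (0.0294). Of the probe sets of RPL5 that were not kept, one with a mean signal of 7.07 differed by 0.14 (adjusted p = 0.00398, limma). Another, with a mean signal of 11.39, differed by 0.08 (adjusted p = 0.131).

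In untreated cells alone, 4 of 61 genes were called higher in GM10861 and 0 lower (6.56%), against 24.3% of all probe sets in either direction, 16.2% higher and 8.15% lower. RPL10 read 10.28, 10.39 and 10.26 in GM10861, against 9.95, 9.84 and 10.02 in GM10855, a difference of 0.37 ± 0.0893 (adjusted p = 0.00332, limma). RPL4 read 12.51, 12.46 and 12.46, against 12.17, 12.30 and 12.26 (0.24, adjusted p = 0.0131). RPL7 read 11.28, 11.40 and 11.40, against 11.08, 11.15 and 11.17 (0.23, adjusted p = 0.0363). RPS3A read 12.17, 12.20 and 12.17, against 11.91, 12.06 and 11.88 (0.23, adjusted p = 0.0499). The groups did not overlap for any of these 4 genes. The genes were picked by the test on the same arrays, so this is no further evidence. The share of all probe sets without overlap was not counted. The call of RPL10 held in every alternative, whereas RPL7 and RPS3A were each lost in 5 of 6 fits that left out 1 untreated array, and RPL4 in 2 of 6. RPL4, RPL7 and RPS3A were also lost under cyclic loess and with only the 2 untreated groups in the fit. RPL36 (-0.29, adjusted p = 0.0504), RPL3L (-0.23) and RPS27L (-0.22) had the smallest p on the lower side.

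Of the genes called between lines, 13 of 14 with a promoter window held a TOP tract (92.9%), as did 30 of 36 genes not called (83.3%). Of 21 genes with more than 1 probe set of their own, 18 had a single sign of the line difference on all of them, and so did all 6 of those that were called. Probe sets of 1 gene are not independent readings, so this is no separate evidence. For RPL41, probe sets with the same mean signal (11.16) gave the same difference (0.12). The share among other genes was not counted.

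Related gene groups are given for comparison, beside 41.8% of all probe sets called between the lines, 23.4% higher and 18.4% lower. Of 73 mitochondrial ribosomal protein genes 48 were called higher in GM10861 and 3 lower (69.9%), with a median of 0.16. These counts were 34 and 3 under cyclic loess, with a median of 0.10. MRPL35 differed by 0.52 and MRPL44 by -0.67. Of 16 measured non-ribosomal TOP genes 8 were called higher and 0 lower (50%), with NPM1, a nucleolar chaperone, at 0.26 and EIF3E at 0.25. Cyclic loess, however, gave 4 higher and 5 lower. Of 31 genes of translation initiation and its control 15 were called higher and 1 lower (51.6%), with EIF4EBP2 at 0.36 and RPS6KA2 at -0.40. Cyclic loess gave 8 and 2. FAU, which encodes the 40S protein RPS30 fused to a ubiquitin-like protein, was lower at -0.17 (adjusted p = 0.00118). Differences between these lists and the 61 genes were not tested.

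Among the copies with longer symbols, RPL7L1 (0.21), RPL26L1 (0.16), RPL22L1 (0.16) and RPL36AL (0.10) were called higher in GM10861. Together with RPL3L, RPL10L, RPL39L and RPS27L these make 8 copies. With the deposited values 4 of them were called higher and 1 lower (62.5%), against 41.8% of all probe sets. Cyclic loess called 1 higher and 1 lower. Target genes of p53 differed between the lines in both directions: of 12 measured, 7 were called lower in GM10861 and 2 higher (75%), against 41.8% of all probe sets, and cyclic loess gave 8 lower and 2 higher. CDKN1A, the cell cycle inhibitor, differed by -0.76, TP53INP1 by -0.61, ZMAT3 by -0.50 and MDM2 by -0.49, while CCNG1 differed by 0.37 and TNFRSF10B, a death receptor, by 0.24. Their part in the difference of RPS27L was not tested.

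With the agents, 0 genes of these lists were called on the deposited values in any of the 8 comparisons averaged over lines. With both agents against untreated cells 60 of 73 mitochondrial ribosomal protein genes were below 0, with a median of -0.06, and 13 of 16 non-ribosomal TOP genes, with a median of -0.04. Over all genes 50% were below 0. VIM, an intermediate filament protein with a TOP mRNA, was lowest in p at -0.30 (adjusted p = 0.0666), and was called under cyclic loess (adjusted p = 0.0475). The genes of translation initiation had a median of 0.01 and those of the p53 readout of 0.00.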

How the data were processed

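Total RNA was labelled from 300 ng per sample and hybridised to Affymetrix whole-transcript arrays, per the labels' protocols. The values are log2 intensities that the authors normalized by RMA, and the submitters' processing notes name version 1.0.1 of Affymetrix Expression Console. This method corrects background, matches the distribution of all arrays and summarises probes, so a change common to most genes would not be seen. The table held 33297 probe sets, of which 19460 had 1 gene symbol, 1754 several and 12083 none, and 19429 of those with 1 symbol were matched by Entrez ID to the GRCh38.p14 gene table. Probe sets with several symbols served only in the tests.

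On the 21214 probe sets with at least 1 symbol, limma 3.58.1 (R 4.3.3) was fitted with 1 mean for each of 8 groups (16 residual and 6.73 prior degrees of freedom). Calls are at a Benjamini-Hochberg adjusted p under 0.05 over all probe sets tested. Medians over all genes use 1 probe set for each of 18417 genes. The fit was tested on simulated data. The precision is limited by 3 arrays per group.

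Alternatives were a mean signal of at least 5, all 33297 probe sets, median centring, cyclic loess, the mean of all probe sets of a gene, a trended and robust prior, array weights, only the groups compared, and each of 24 arrays left out. Genes were named where called (at most the 10 largest changes in a direction, the other 5 genes being added after their values were seen), else by the 3 smallest p in a direction, together with a fixed set of known interest. The genes and lists were chosen with earlier results of these data known. Replicate numbers follow the order of deposit and pair no arrays. The genes that share every probe set with another symbol (11 of the 20 not analysed here) and Y-linked genes were left out.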

Additional observations from a re-analysis of the deposited data

How the results depend on the processing

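Of the comparisons of agents, the members called stayed at 0 in every alternative, except both agents against untreated cells averaged over lines: there 1 gene, RPL26, was called with a mean signal of at least 5, with a trended and robust prior and with array weights, and 0 to 1 when an array was left out. With both agents against untreated cells in GM10855 the count of 2 became 1 with all probe sets, 0 with array weights and 0 with only the groups compared, and 0 to 3 when an array was left out. Between the lines in untreated cells the count of 4 became 8 with a mean signal of at least 5, 9 with centred arrays, 9 with a trended and robust prior, 1 with only the groups compared, and 2 to 5 when an array was left out. Averaged over agents the count of 18 lay between 14 and 22, but the genes called were not always the same. Under cyclic loess 5 of the 18 calls held in the same direction, and 9 further genes were called lower. Cyclic loess moved the median line difference to -0.104 in untreated cells and to -0.0427 averaged over agents, and the median difference in calcitriol response to 0.00286 (-0.0721 with the deposited values). The cause was not tested. Leaving out an array gave a median difference in estrogen response of 0.0053 to 0.126 (0.0861 with all arrays), the lowest without GM10855 estrogen replicate 3. The same array gave the lowest median of both agents against estrogen in GM10855, whose range was -0.0632 to 0.0308 (0.0107 with all arrays). No result named here changed sign while past the threshold in both settings. The fit with only the groups compared was not run where all 8 groups enter. No paired analysis was possible because replicate numbers were given in the order of deposit. The median half-width of the 95% intervals was 0.14 for agents averaged over lines and 0.198 within a line.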
